A study of Nasonia vitripennis with 2 samples.

Results

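Deep CpGs were chosen by read depth alone: every CpG site with more than 170 reads (unconverted C plus converted T) in bisulfite sequencing of adult Nasonia vitripennis females. They numbered 7769 of 14024488 CpG sites. Of these, 7760 lay on nuclear scaffolds and 9 on a mitochondrial scaffold, which is described apart at the end. Deep CpGs less than 500 bp apart on a scaffold were joined, which gave 2172 nuclear blocks on 858 of 6181 nuclear scaffolds (13.9%). They are set beside the 672038 nuclear CpGs of 50 to 170 reads. The nuclear deep CpGs were 0.0553% of all nuclear CpGs and held 1.72% of the reads.

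The DNA came from 1 pool of 50 whole-body adult females of the inbred strain AsymCX, taken at 24 h, and a line that per the study's methods carries no Wolbachia. A GAIIx lane and a HiSeq2000 lane of this pool were run, so the 2 lanes are not replicates. No value below therefore has an error between samples, and no test between groups was possible. Intervals are 95% Wilson intervals, which cover counting error only; reads made by PCR are not independent molecules, and a read is counted at each CpG it spans.

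In insects, cytosine methylation stands almost wholly at CpG sites and mostly within the bodies of widely expressed genes, while most other sequence is left without it. A methylated C is read as C after bisulfite treatment and any other C as T. Where a genome holds near-identical copies of a sequence and its assembly shows only one of them, reads from every copy align to that one place and its depth rises, whereas copies that are all shown in the assembly lose their reads when only unique alignments are kept. Reads from the abundant mitochondrial DNA, or from copies made by PCR, raise depth as well. The deposited counts carry no mark of any of these. No repeat or gene annotation of these scaffolds was used here, so the sites are called deep CpGs and not repeats, and whether the depth comes from collapsed copies or from PCR was not tested.

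Most blocks were small. The median block held 2 deep CpGs over 10 bp, and its median depth was 201 reads. A single deep CpG made up 961 blocks (44.2%), and 2 to 4 deep CpGs made up 844. The 367 blocks of 5 or more deep CpGs held 59.6% of the deep CpGs and 76.1% of their reads. These larger blocks had a median span of 261 bp and a median depth of 295.5 reads, and in the median one 90.3% of the CpGs between its ends were deep. Only 41 blocks spanned 1000 bp or more. The 58 blocks of median depth over 1000 reads held 8.56% of the deep CpGs and 39.6% of the reads.

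The block with the most deep CpGs lay on SCAFFOLD549 from position 37067 to 40435, with 237 deep CpGs of 267 CpGs and 354958 reads, 9.10% of all reads at deep CpGs. Its deep CpGs had 176 to 8909 reads with a median of 1066. The depth came in repeated rises and falls: 130 CpGs over 1000 reads stood across 3304 bp of the block, and 10 CpGs over 5000 reads across 1871 bp, while other CpGs between them had as few as 2 reads. The longest block, on SCAFFOLD70 from 70545 to 77311 (6767 bp), held 226 deep CpGs of 320 CpGs, with a lower median of 398 reads and a maximum of 1233. The next 3 blocks by deep CpGs were on SCAFFOLD777 (118 to 1493, 80 deep CpGs, median 402.5 reads), on SCAFFOLD317 (3175 to 5525, 74 deep CpGs, median 466 reads) and on SCAFFOLD1793 (4621 to 9056, 62 deep CpGs, median 256 reads). On SCAFFOLD317 every CpG of the block was deep, whereas on SCAFFOLD1793 only 41.1% were. Of the 5 longest blocks, the 2 not yet named were on SCAFFOLD1861 (33356 to 36580, 50 deep CpGs of 83) and SCAFFOLD393 (2180 to 5214, 31 of 55), with median depths of 286.5 and 264 reads.

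**Figure D1:**
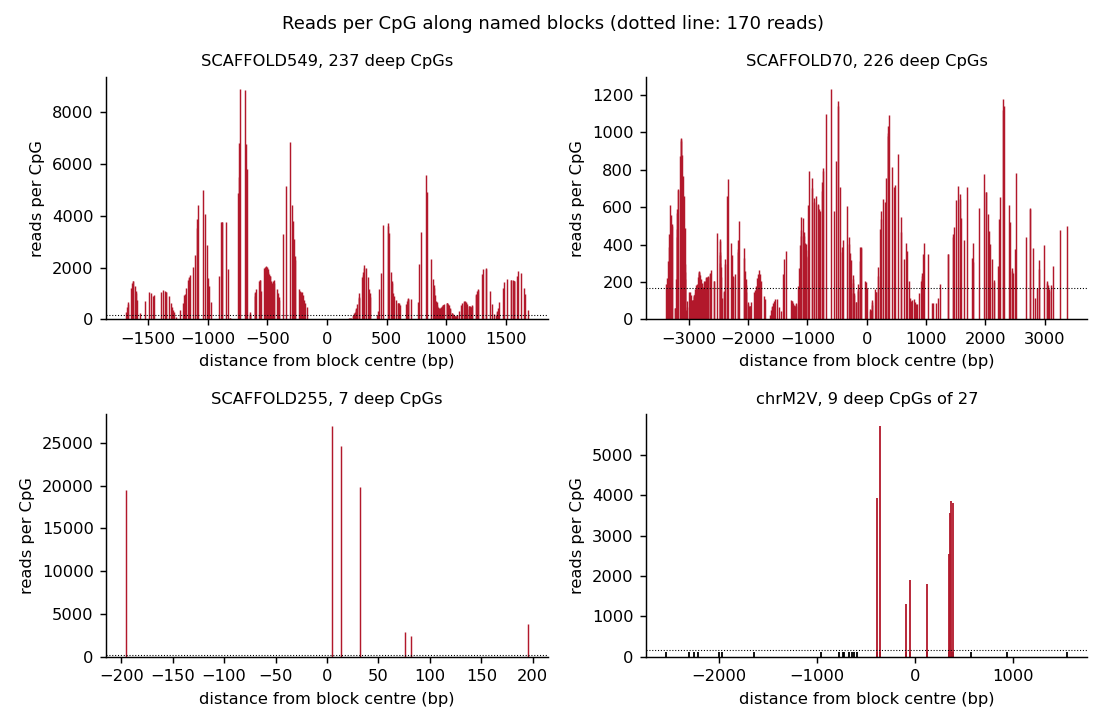
Reads per CpG (vertical axis) by distance from the block centre in bp (horizontal axis) for the block with most deep CpGs (SCAFFOLD549), the longest block (SCAFFOLD70), the deepest block of 5 or more deep CpGs (SCAFFOLD255) and the mitochondrial scaffold chrM2V, where ticks on the axis mark every CpG. Each line is 1 CpG; depth on SCAFFOLD549 reaches 8909 reads in several separate peaks, and on chrM2V 9 of 27 CpGs carry nearly all the reads.

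The deepest blocks were short. On SCAFFOLD255 (170316 to 170706) the 7 CpGs had 19454, 26968, 24677, 19890, 2883, 2409 and 3829 reads in order of position, and 26968 was the highest depth of any CpG. The first 4 stood far above the last 3 within 391 bp. On SCAFFOLD884 (16946 to 17139) 9 CpGs had 1201 to 19769 reads, and the 4 deepest were neighbours at the right end. On SCAFFOLD1602 (7950 to 8057) the 6 CpGs had 645, 10429, 12233, 12840, 10164 and 2037 reads, a single peak within 108 bp. On SCAFFOLD1038 (61208 to 61355) 9 CpGs climbed with position through 223, 648, 1463, 2494, 5153, 5882 and 7575 reads and ended at 5981 and 4846 reads. SCAFFOLD2436 (1009 to 1104) had 6 CpGs of 3020 to 8296 reads and ended 50 bp past the block. None of these 5 blocks held a methylated site.

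Where both of a pair of neighbouring CpGs were deep, their depths differed by a median factor of 1.05 at 2 to 10 bp apart and of 1.42 at 51 to 75 bp. Single steps were larger, as on SCAFFOLD255 between 19890 and 2883 reads. CpGs outside a block have at most 170 reads by the rule, at least within 500 bp, so their depth is given as a description. A CpG near several blocks was counted for each of them. Outside all blocks the median depth was 142 reads at 1 to 25 bp, 52 at 51 to 75 bp, 19 at 101 to 150 bp and 11 at 1001 to 2000 bp, the last equal to the median of 11 reads over all sites. Around the 367 blocks of 5 or more deep CpGs the fall was steeper, to 118, 27, 12 and 6 reads at the same distances. Around the 58 blocks of median depth over 1000 reads it was steeper still, with 42, 5, 5 and 5 reads, and at 201 to 300 bp 49.7% of CpGs had no reads at all, compared with 16.7% at that distance around all blocks. A CpG without reads lay within 500 bp of 269 of the 367 larger blocks (73.3%) and of 1010 of all 2172 blocks (46.5%). Counted by site, 47.7% of deep CpGs had one within 500 bp, against 15.9% of CpGs of 50 to 170 reads and 17.2% of covered CpGs. Around the larger blocks the share of CpGs without reads was as high at 1001 to 2000 bp (32.6%) as at 201 to 300 bp (31.8%), so it was not limited to the edge of the block. The reason was not tested.

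**Figure D2:**
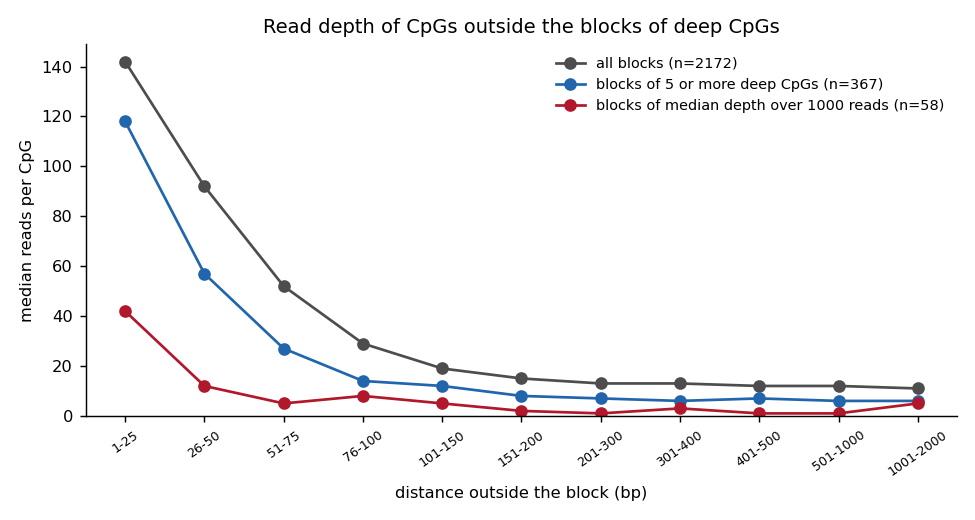
Median reads per CpG (vertical axis) by distance outside the block in bp (horizontal axis, classes of unequal width) for all blocks, blocks of 5 or more deep CpGs and blocks of median depth over 1000 reads. Lines join the class medians; they start at 142, 118 and 42 reads next to the blocks and end at 11, 6 and 5 reads.

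A methylated site (mCpG) was a CpG of at least 10 reads of which more than 10% were methylated. There were 110 mCpGs among the 7760 deep CpGs (1.42%, interval 1.18% to 1.71%), against 3.42% of the CpGs of 50 to 170 reads (22979 of 672038) and 1.50% of all nuclear CpGs of 10 or more reads. The deep share was thus under the share at 50 to 170 reads, but its interval contains the share over all covered CpGs. Pooled over reads, 15184 of 3900459 reads at deep CpGs were methylated (0.389%), against 2.27% at CpGs of 50 to 170 reads and 1.45% at covered CpGs. The pooled value is weighted to the deepest sites: the mean of the single deep CpGs' percentages was 0.745%, and the mean over blocks 1.39%, against a mean of 2.27% over single CpGs of 50 to 170 reads. Depth chose the sites and methylation did not, but CpGs of a block share reads, so these are descriptions of 1 library and no test was made.

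Among the deep CpGs, the share of mCpGs was lower in each deeper class, and there was no step at 170 reads. The share was 3.31% at 50 to 70 reads, 3.66% at 71 to 100 reads and 3.15% at 136 to 170 reads. It was 2.61% at 171 to 200 reads (62 of 2376), 1.33% at 201 to 300 (32 of 2413), 0.843% at 301 to 500 (12 of 1424) and 0.448% at 501 to 1000 (4 of 893). None of the 654 CpGs over 1000 reads was an mCpG, a count of 0 that allows a share of up to 0.459%. Just inside the threshold, 15 of 544 CpGs of 171 to 175 reads were mCpGs (2.76%), and just outside it 13 of 610 CpGs of 166 to 170 reads (2.13%). The intervals of the classes on either side of 170 reads overlap, and 62 of the 110 deep mCpGs had no more than 200 reads.

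**Figure D3:**
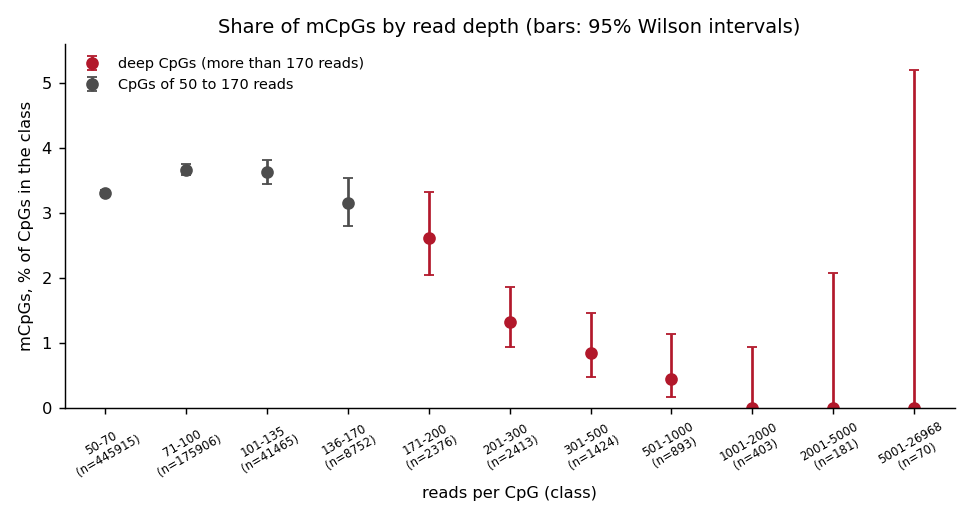
Percentage of CpGs that were mCpGs (vertical axis) by class of reads per CpG (horizontal axis), with 95% Wilson intervals; deep CpGs are in red and CpGs of 50 to 170 reads in grey. The share is 3.15% at 136 to 170 reads, 2.61% at 171 to 200 reads and 0 in the 3 classes over 1000 reads.

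Where a deep CpG was methylated, it was mostly methylated in part. The 110 deep mCpGs had a median of 36.0% methylated reads (quartiles 18.2% and 59.2%), against 66.2% (38.5% and 83.8%) for mCpGs of 50 to 170 reads. Of the deep mCpGs, 41 (37.3%) lay between 10% and 25%, against 14.9% of the comparison mCpGs, and 11 (10.0%) lay over 75%, against 38.7%. Among mCpGs under the threshold, the median percentage already fell, from 68.4% at 50 to 70 reads to 50.7% at 136 to 170 reads. The median percentage of the deep mCpGs was 51.0% at 171 to 200 reads (n = 62), so there was no step at 170 reads. It was 24.8% at 201 to 300 (n = 32), 17.3% at 301 to 500 (n = 12) and 15.6% at 501 to 1000 (n = 4). SCAFFOLD1861 alone gave 6 of the 12 and 3 of the 4. Without it the medians were 52.3%, 31.8%, 23.5% (n = 6) and 32.0% (n = 1), so the lower values over 300 reads rest in part on that scaffold. The deepest site with more than 75% methylated reads had 228 reads, and the deepest with more than 50% had 317. The most methylated deep CpG was on SCAFFOLD2 at position 4843910, where 177 of 182 reads (97.3%) were methylated.

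**Figure D4:**
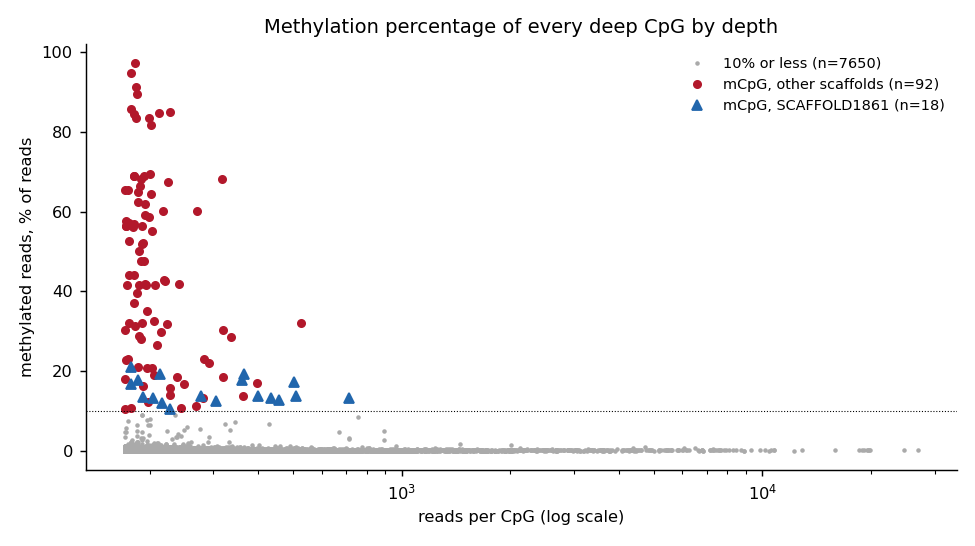
Percentage of methylated reads (vertical axis) by reads per CpG (horizontal axis, log scale) for each of the 7760 deep CpGs; the dotted line is the 10% limit for an mCpG. The 92 mCpGs on other scaffolds (red circles) span 10.5% to 97.3%, the 18 on SCAFFOLD1861 (blue triangles) lie between 10.6% and 20.9%, and no mCpG has more than 713 reads.

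The deep mCpGs lay in 65 blocks (2.99%) on 50 scaffolds. Single-CpG blocks held one in 35 of 961 cases (3.64%), blocks of 2 to 4 deep CpGs in 25 of 844 (2.96%) and blocks of 5 or more in 5 of 367 (1.36%). Of the 30 blocks with an mCpG and at least 2 deep CpGs, 15 had mCpGs only. These blocks stood within methylated surroundings: 1448 of 4569 covered CpGs within 2000 bp of the 65 blocks were mCpGs (31.7%), against 1.24% around the 2107 blocks without an mCpG. A CpG within 2000 bp of several blocks was counted for each of them, and deep CpGs of other blocks were included. At least 1 mCpG was found in the flanks of 60 of the 65 blocks, against 217 of the 2107. Since the blocks were split here by their own methylation, and neighbouring CpGs share reads and surroundings, these values are a description.

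The blocks with the most mCpGs took different forms. The blocks of SCAFFOLD1861 described next held 9 each, that of SCAFFOLD418 5 and that of SCAFFOLD23 4, and 4 blocks tied at 3. On SCAFFOLD47 (509615 to 509641) the 3 deep CpGs were methylated in 168 of 177, 152 of 177 and 153 of 181 reads, or 94.9%, 85.9% and 84.5%. The mCpGs of the other blocks with 3 mCpGs were lower: SCAFFOLD63 (772265 to 772507) had 14.1%, 18.4% and 30.3%, SCAFFOLD197 (223083 to 223418) had 20.7%, 44.2% and 13.1%, and SCAFFOLD353 (20614 to 21142) had 13.8%, 68.9% and 69.5%. The last deep CpG of the SCAFFOLD63 block was at 3.04%, and the first of the SCAFFOLD353 block was not an mCpG either. High and low percentages thus stood together in some blocks and not in others. On SCAFFOLD418 (19252 to 19690) the 5 CpGs, of 271, 317, 336, 396 and 202 reads, were methylated at 60.1%, 68.1%, 28.6%, 16.9% and 64.4%. Within that block the 2 deepest CpGs were the 2 least methylated. On SCAFFOLD23 (598616 to 599150) the 5 deep CpGs were at 50.3%, 41.5%, 26.7%, 85.1% and 0.568%, and the last, a site of 176 reads, was the next CpG after the most methylated one. The flanks of these blocks carried methylation too: within 2000 bp 22 of 57 covered CpGs were mCpGs on SCAFFOLD47, 34 of 69 on SCAFFOLD418 and 28 of 33 on SCAFFOLD23, against 41 of 91 on SCAFFOLD63, 15 of 118 on SCAFFOLD197 and 3 of 48 on SCAFFOLD353.

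SCAFFOLD1861, of 44495 bp, held 16 blocks with 169 deep CpGs, and 18 of the 110 deep mCpGs, more than any other scaffold, all in 2 of its blocks. In the block from 4753 to 5758, 9 of 11 deep CpGs were mCpGs at 12.4% to 19.2%, and 616 of 4830 reads were methylated (12.8%, interval 11.8% to 13.7%). The other 2 deep CpGs were at 4.62% and 3.41%. The 9 mCpGs of that block fell into no order by depth: the deepest, of 713 reads, was at 13.3% and the shallowest, of 277 reads, at 13.7%, while the highest percentages, 19.2% and 17.7%, were at 365 and 361 reads. In the block from 40247 to 43230, methylation changed along the block. Over the first 2, the middle one and the last 2 of 5 equal stretches, 5 of 7583 reads (0.0659%), 28 of 2341 (1.20%) and 407 of 3305 (12.3%) were methylated, and its 9 deep mCpGs had 10.6% to 20.9%. The lower end of these ranges is set by the 10% limit. The 9 mCpGs of this scaffold with 94 to 170 reads had 10.3% to 26.3% and a median of 13.6%, against a median of 13.7% for its 18 deep mCpGs. None of the 18 was over 50%, against 41 of the 92 deep mCpGs on other scaffolds (44.6%), whose median was 42.8%. The other 14 blocks of the scaffold, among them the one of 3225 bp, held no mCpG. Of the 14 and 112 covered CpGs within 2000 bp outside the 2 methylated blocks, none was an mCpG.

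**Figure D5:**
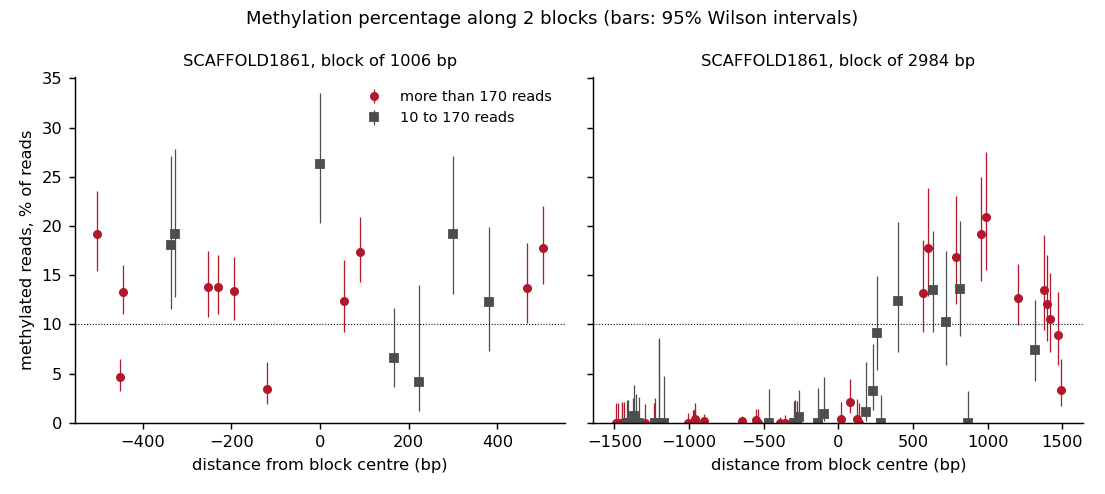
Percentage of methylated reads (vertical axis) by distance from the block centre in bp (horizontal axis) for CpGs of 10 or more reads in the 2 blocks of SCAFFOLD1861 with mCpGs; circles are deep CpGs, squares CpGs of 10 to 170 reads, bars 95% Wilson intervals, and the dotted line the 10% limit. In the left block 9 of 11 deep CpGs lie between 12.4% and 19.2%; in the right one the left parts lie near 0 and the mCpGs on the right between 10.3% and 20.9%.

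Away from the mCpGs, unconverted reads were few. At deep CpGs that were not mCpGs, 0.149% of reads were unconverted (interval 0.145% to 0.153%). The value was 0.202% (0.201% to 0.204%) at such CpGs of 50 to 170 reads and 0.158% (0.157% to 0.159%) at such covered CpGs, so the deep value was close to that of covered CpGs. Below the threshold it was 0.194% at 50 to 70 reads and 0.218% at 136 to 170 reads. By deep class the value was 0.204% at 171 to 200 reads, 0.174% at 201 to 300, 0.147% at 301 to 500, 0.146% at 501 to 1000, 0.105% at 1001 to 2000, 0.145% at 2001 to 5000 and 0.137% over 5000. At least 1 unconverted read was seen at more deep sites, since 63.2% of deep CpGs had none, against 86.4% of the CpGs of 50 to 170 reads. This share depends on the number of reads per site, which chose the deep CpGs. It was 88.1% at 50 to 70 reads, 76.6% at 136 to 170 reads and 73.9% at 171 to 200 reads. Between 1% and 10% lay 189 deep CpGs (2.44%), against 9.11% of the CpGs of 50 to 170 reads, and between 5% and 10% lay 18 (0.232%), against 0.421%. At 50 to 100 reads a single unconverted read is already 1% or more. Over 1000 reads only 3 of 654 CpGs exceeded 1%, with a maximum of 1.79%.

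The deep CpGs stood in CpG-poor sequence. A median of 35 CpGs (quartiles 24 and 52) lay in the 1000 bp around a deep CpG, against 49 (32 and 73) for CpGs of 50 to 170 reads and 73 for covered CpGs. This median already fell below the threshold, from 52 at 50 to 70 reads to 36 at 136 to 170 reads. Among the deep classes it was 35 at 171 to 200 reads, lowest at 201 to 300 (33) and highest at 1001 to 2000 (45). Only 27 deep CpGs (0.348%) were in surroundings of 104 or more CpGs, the range of the densest sequence of the table, against 1.85% of the CpGs of 50 to 170 reads. Among mCpGs the density hardly differed, with medians of 16 CpGs for deep mCpGs and 18 for mCpGs of 50 to 170 reads. Both kinds of mCpG thus stood in CpG-poor sequence, and weighted to the density of the deep CpGs, the CpGs of 50 to 170 reads had 5.83% mCpGs. Within surroundings of up to 20 CpGs, 82 of 1189 deep CpGs were mCpGs (6.90%), against 24.1% of CpGs of 50 to 170 reads and 23.4% of covered CpGs. In surroundings of 21 to 34 CpGs these shares were 0.922%, 5.00% and 5.39%, and at 35 to 57 CpGs 0.161%, 1.05% and 1.15%. In these 3 density classes the deep share was under both others, although over all densities its interval contained that of covered CpGs. In surroundings of more than 57 CpGs none of 1479 deep CpGs was an mCpG, which allows a share of up to 0.203%, against 0.0236% of CpGs of 50 to 170 reads and 0.0439% of covered CpGs, so no difference was detectable there.

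Blocks were found on scaffolds of every length, but more densely on short ones. There were 17.4 blocks per Mbp on scaffolds of up to 2000 bp and 16.6 on those of 2000 to 5000 bp. The highest value was 26.1, on scaffolds of 5000 to 10000 bp, followed by 19.9 at 10000 to 20000 bp. It was 13.2 at 20000 to 100000 bp, 7.27 at 100000 to 1000000 bp and 4.28 over 1000000 bp. The median scaffold length was 258084 bp over blocks, 94467 bp over blocks of 5 or more deep CpGs and 153228 bp over single deep CpGs, against 1594549 bp over CpGs of 50 to 170 reads. Scaffolds under 10000 bp held 14.7% of the deep CpGs, against 2.31% of the CpGs of 50 to 170 reads. By depth the share was 8.25% at 171 to 200 reads, 14.5% at 201 to 300, 19.3% at 301 to 500, 18.5% at 501 to 1000, 16.9% at 1001 to 2000, 30.4% at 2001 to 5000 and 41.4% over 5000. Deep CpGs on scaffolds of up to 20000 bp included a single mCpG. Of the 110, 32 lay on scaffolds of 20000 to 100000 bp, 18 of which were on SCAFFOLD1861, another 32 on scaffolds of 100000 to 1000000 bp, and 45 on the 46 scaffolds over 1000000 bp, where they were 4.12% of the deep CpGs. Within 1000 bp of a scaffold end lay 254 of the 2172 blocks (11.7%), and 85 of the 367 blocks of 5 or more deep CpGs (23.2%). This share was not taken for the comparison CpGs, and the blocks lay on shorter scaffolds. Whether blocks lie near ends more often than other sites was therefore not tested. The length of a scaffold here is its last listed CpG position.

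By number of blocks, the first 3 scaffolds were also among the longest. SCAFFOLD2 (7646045 bp) held 43 blocks with 90 deep CpGs and 5 deep mCpGs, SCAFFOLD1 (9425337 bp) held 38 with 68 and 2, and SCAFFOLD6 (4401447 bp) held 31 with 56 and 4. Their deep CpGs were 0.0181%, 0.0110% and 0.0195% of their CpGs with reads. On SCAFFOLD1861 this share was 17.6%, and on SCAFFOLD549 16.8%. No scaffold had deep CpGs at all of its sites with reads, and the highest share was 76.5%. Of the 858 scaffolds with deep CpGs, 462 had 1 block and 29 had 10 or more.

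Whether like sequence stands elsewhere in the scaffolds was described by the spacing of CpGs, a property that the choice of sites did not use. A run of 8 successive distances between CpGs, which spanned a median of 216 bp at deep CpGs and 176 bp at CpGs of 50 to 170 reads, was called recurring where the same run was found at another place in the table. At deep CpGs 333 of 7596 runs recurred (4.38%, interval 3.95% to 4.87%), against 0.683% at CpGs of 50 to 170 reads and 1.14% at covered CpGs. By depth class the share rose from 0.616% at 50 to 70 reads to 2.34% at 136 to 170 reads and 2.76% at 171 to 200 reads. Over all nuclear CpGs, those without reads included, 6.22% recurred, and among CpGs without reads 55.3%. The deep share was thus above those of covered CpGs and of CpGs of 50 to 170 reads, and under that of the whole table. Sites with reads, but fewer than 10, were not counted apart. Most runs at deep CpGs thus had no such partner in the scaffolds. A run could reach outside its block, since 79.4% of blocks, with 39.5% of the deep CpGs, spanned under 75 bp. In such blocks a run of the median 216 bp lay mainly outside the block. Whether the deep sequence itself has a copy was therefore not tested there. The 333 lay in 142 blocks. None of these held an mCpG (interval up to 2.63%), against 65 of all 2172 blocks (2.99%). The median density of the 142 blocks was 42 CpGs, against 31 over all blocks and 16.5 over blocks with an mCpG. Whether the absence of mCpGs goes with recurrence or with density was not tested. For 163 of the 333 runs (48.9%) a partner was on the same scaffold, for 203 (61.0%) on another, and for 43 (12.9%) a partner was itself deep. Shared runs joined 17 blocks into 8 groups. The largest was of 3 blocks on SCAFFOLD1951 with 50 deep CpGs and up to 5414 reads. With 5 distances in place of 8 the shares were 19.0% at deep CpGs and 16.7% at CpGs of 50 to 170 reads, so the gap depends on the length of the run. A run that does not recur says only that no other place has the same spacing, and a copy absent from the scaffolds, or one with a changed CpG, would not be seen.

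Both mitochondrial scaffolds were poor in CpGs, with 6.41 per 1000 bp on chrM2V and 5.58 on chrM1V, against 47.6 on nuclear scaffolds. All 54 CpGs of chrM1V (to position 9677) had no reads. Of the 27 CpGs of chrM2V (to position 4215), 17 had no reads, 1 had 3 reads and 9 were deep. The 9 deep CpGs formed 1 block from 2278 to 3050, with 3936, 5712, 1299, 1893, 1803, 2555, 3565, 3849 and 3808 reads in order of position. Only a middle stretch of the scaffold was thus deep, and the sites on its sides had none or almost none. There, 53 of 28420 reads were unconverted (0.186%, interval 0.143% to 0.244%), and single CpGs had 0.0762% to 0.317%, so that none was an mCpG. Among nuclear deep CpGs the value was 0.105% at 1001 to 2000 reads (0.0970% to 0.114%) and 0.145% at 2001 to 5000 reads (0.135% to 0.155%), and the second interval overlaps that of the mitochondrial CpGs.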

How the data were processed

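WGBS-seq counts of 1 pool of females were used. The authors used BWA to align reads of 75 bp after trimming to converted reference scaffolds, allowed mismatches, kept unique alignments and deposited raw counts of C and T per CpG site, summed over both lanes and both strands. The submitters' processing notes name CASAVA 1.7 and BWA. The BWA version, scaffold release and any duplicate removal are not given in the sources used here. The sum over all sites was 226856322 counts, with a median of 11 per site. Positions are the scaffold positions of the table.

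Deep CpGs, blocks and comparison CpGs were defined as given in the report. Covered CpGs had at least 10 reads. The methylation percentage of a set of sites was the sum of its methylated reads divided by the sum of its reads. For a count of 0 the limit was 3 counts over the total. Sites, comparisons and lists were chosen with earlier results of these data known. Regions were named by rule: every mitochondrial block, the 5 blocks each with the most deep CpGs, the highest median depth (of 5 or more deep CpGs), the longest span and the most mCpGs, and the 3 scaffolds with the most blocks. Blocks tied by mCpGs were all named. SCAFFOLD1951, the SCAFFOLD2 site and those in the additional observations were named after their values were seen. The joining of blocks was tested on simulated data. Thresholds, joining distances, mCpG limits, windows, left-out blocks or scaffolds and run lengths were varied. The available gene table is of another assembly and was not used, and the table holds no unmapped column. Python 3.11.15 was used with pandas 2.3.3, NumPy 2.4.6 and SciPy 1.17.1, and figures were drawn with matplotlib 3.10.9.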

Additional observations from a re-analysis of the deposited data

How the results depend on the processing

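Of 53 alternative values, 18 kept within the interval of the reported value (for counts, within 1.5 times it) and 35 did not. Whether the direction of a comparison turned round was not checked. With more than 100, 250 and 500 reads as the threshold there were 23360, 717 and 302 blocks and 57977, 3780 and 1547 deep CpGs, with 3.26%, 0.582% and 0.259% mCpGs. The deep share of mCpGs was 0.992% with mCpGs at more than 20% (3.05% at 50 to 170 reads) and 1.10% without single-CpG blocks. For the comparison CpGs it was 1.50% at 10 to 170 reads, 3.53% at 100 to 170 reads and 5.83% weighted by density, and their methylation percentage was 1.47%, 2.10% and 3.62%. The methylation percentage of the deep CpGs was 0.745% as a mean of CpGs, 1.39% as a mean of blocks, 0.421% without the SCAFFOLD549 block, which has both the most deep CpGs and the most reads, and 0.458% without scaffolds under 10 kbp. Leaving out SCAFFOLD1861, chosen after seeing the data, gave 0.368%, with 1.21% mCpGs. The density at 50 to 170 reads was 45 and 48 per kbp in windows of 200 and 500 bp and 50 away from scaffold ends or without scaffolds under 10 kbp. The median scaffold length was 153228 bp over deep CpGs and 94467 bp over blocks of 5 or more, and block depth was 196 reads over all CpGs of a block. Recurring runs, with lengths also chosen after seeing the data, were 19.0% against 16.7% with 5 distances and 2.07% against 0.234% with 12. The causes were not tested. No paired analysis was possible because the labels give 1 group and both lanes are summed in 1 pair of columns, and for that reason neither lane could be left out. With 1 pool the error between samples is unknown, and shares from few mCpGs have wide intervals.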

Other observations

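Among the 482 blocks of 1000 or more reads without an mCpG, the median percentage of unconverted reads was 0.115% (quartiles 0.0756% and 0.175%), 49 blocks had no unconverted read, and 8 were over 1%. The highest was a block of 2 deep CpGs on SCAFFOLD143 from 263951 to 264005, with 71 of 1086 reads unconverted (6.54%), below the limit for an mCpG.

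Short scaffolds with and without deep CpGs differed in methylation over all of their covered CpGs. Of the 13562 covered CpGs on the 193 scaffolds of up to 10000 bp with a deep CpG, 20 were mCpGs (0.147%, interval 0.0955% to 0.228%), against 1.24% (1.17% to 1.30%) on the 2991 such scaffolds without one. From 10000 to 100000 bp the shares were 1.25% and 1.09%, and over 100000 bp 1.55% and 0.711%. CpGs of one scaffold share their surroundings, so the intervals are too narrow for a comparison of scaffolds.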
